A study of Mus musculus with 2 samples.

Results

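The genes described here are the nuclear genes of oxidative phosphorylation, taken by symbol as those that begin with Nduf, Sdh, Uqcr, Cox4 to Cox8 or Atp5 followed by a subunit letter or number, without mitochondrial chromosome genes. The rule found 77 members among the 16943 nuclear genes with a row. By complex these were 35 genes of complex I, 4 of complex II, 8 of complex III, 13 of complex IV and 17 of complex V, and 75 of the 77 passed a filter of a mean of at least 10 CPM over the plates (CPM is the usual count unit scaled to nuclear reads). Ndufs5, Cox4i2, Cox6a2, Cox7b2, Cox8b and Cox8c had no row and were not analysed here. The symbol rule is looser than the biology at some places. Cox7a2l, counted under complex IV, is known as an assembly factor of supercomplexes. Ndufa4 is counted under complex I by its name, although it is now known as a subunit of complex IV, and Atp5s and Atp5sl (Dmac2l and Dmac2 in RefSeq) are factors and not subunits of the ATP synthase.

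The cells came from organoids of mouse jejunal and ileal epithelium that carry the Neurog3-RFP reporter in homozygous form ("hom"), in which red fluorescence marks cells that express Neurog3 or did so shortly before. Neurog3 (Ngn3) is the transcription factor at the start of the enteroendocrine lineage. RFP-positive cells were sorted singly into 384-well plates after 48 h with ISX-9, a small molecule of the isoxazole class, or after 48 h with its control DMSO. There was 1 plate per treatment, so each difference between ISX-9 and DMSO is a difference between 2 libraries without a replicate check. No p-value is given, and treatment and plate cannot be told apart.

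Oxidative phosphorylation makes most of the ATP of a differentiated cell. Complex I (NADH dehydrogenase) and complex II (succinate dehydrogenase) feed electrons to complex III (cytochrome c reductase), complex IV (cytochrome c oxidase) passes them to oxygen, and complex V (ATP synthase) uses the resulting proton gradient to form ATP. Complexes I, III, IV and V also hold subunits encoded in mitochondrial DNA, while complex II is wholly nuclear. In the crypts of the small intestine, dividing progenitors are known to differ from differentiated secretory cells in how far they rely on glycolysis and on mitochondrial respiration.

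Wells with at least 2000 nuclear reads and 500 nuclear genes were kept, 290 of 384 in the ISX-9 plate and 300 of 384 in the DMSO plate. The kept wells held 11801859 nuclear reads (median 22510 per well) in the ISX-9 plate and 14754827 (median 26340) in the DMSO plate. The libraries differed in Rn45s, a ribosomal RNA precursor, which took 6.098% of nuclear reads in ISX-9 and 12.62% in DMSO. As a check of the sort, Neurog3 had no read in 79 of the 290 ISX-9 wells and in 153 of the 300 DMSO wells, and it stood at 2990 CPM in ISX-9 against 678.6 CPM in DMSO. The cell mixture differed between the plates as well. The summed level of 8 endocrine progenitor markers was 5210 CPM in ISX-9 and 1909 CPM in DMSO, that of 8 goblet cell markers was 4123 CPM in ISX-9 and 9914 CPM in DMSO, and that of 7 Paneth cell markers was 2847 CPM in ISX-9 and 12102 CPM in DMSO. Well columns carry the same numbers in both plates, and 225 of these numbers were kept in both. In CPM all 8 progenitor markers had a log2 ratio above 0, all 8 goblet markers one below 0, and 6 of the 7 Paneth markers one below 0. The part of these mixtures in the plate differences below was not tested.

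The 77 members took 182223 reads in the ISX-9 plate, 1.544% of nuclear reads, and 202247 reads in the DMSO plate, 1.371%. Their summed level was 15440 CPM (95% Poisson interval 15369 to 15511) in ISX-9 and 13707 CPM (13648 to 13767) in DMSO, which is 1.126-fold or a log2 ratio of 0.17, but the sign turned with the scaling, to -0.03 with median-of-ratios size factors and to -0.08 with ERCC spike-ins. Median-of-ratios scaling moved the median of all genes by -0.18 and ERCC scaling moved it by -0.23. Among the 9106 nuclear genes that passed the filter the median log2 ratio was 0.15, and among the 75 members it was 0.17. Relative to all genes the members' median therefore differed by 0.02 in CPM, by 0.01 with median-of-ratios scaling and by 0.00 with ERCC scaling. In the single wells the summed level had a median of 11771 CPM in ISX-9 (quartiles 8311 and 15167, range 1310 to 25349) and of 10555 CPM in DMSO (quartiles 7433 and 13696, range 535.2 to 30936). The wells of the 2 plates overlapped widely.

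No member reached a 2-fold difference between the plates in either direction among the 75 that passed the filter. Over all genes 4.51% were at least 2-fold higher in ISX-9 and 1.19% at least 2-fold lower. The members spanned log2 ratios of -0.21 to 0.61. A positive ratio was found for 57 members, or 76%, against 67.4% of all genes, and a negative ratio for 18. That split was 36 against 39 with median-of-ratios scaling and 29 against 46 with ERCC scaling. The middle 50% of all genes lay between -0.08 and 0.39, and 54 of the 75 members lay in that interval. The Poisson intervals of the 2 plates did not overlap for 47 of the 75 members. Of these 43 (57.3% of 75) were higher in ISX-9, against 43.1% of all genes, and 4 (5.33%) were lower, against 15.7% of all genes. These intervals cover counting error only and no variation between plates or cells. They are narrower for genes with more reads, and 43 of the 75 members had a mean of at least 100 CPM, against 1945 of 9106 genes. The shares of members and of all genes are therefore not compared at like read numbers. The intervals are those of CPM, and the split of signs given above turned with the scaling. The 83 genes of cytoplasmic ribosomal proteins, another large set of steadily expressed genes, had a median of 0.02 over the 71 that passed the filter.

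**Figure D1:**
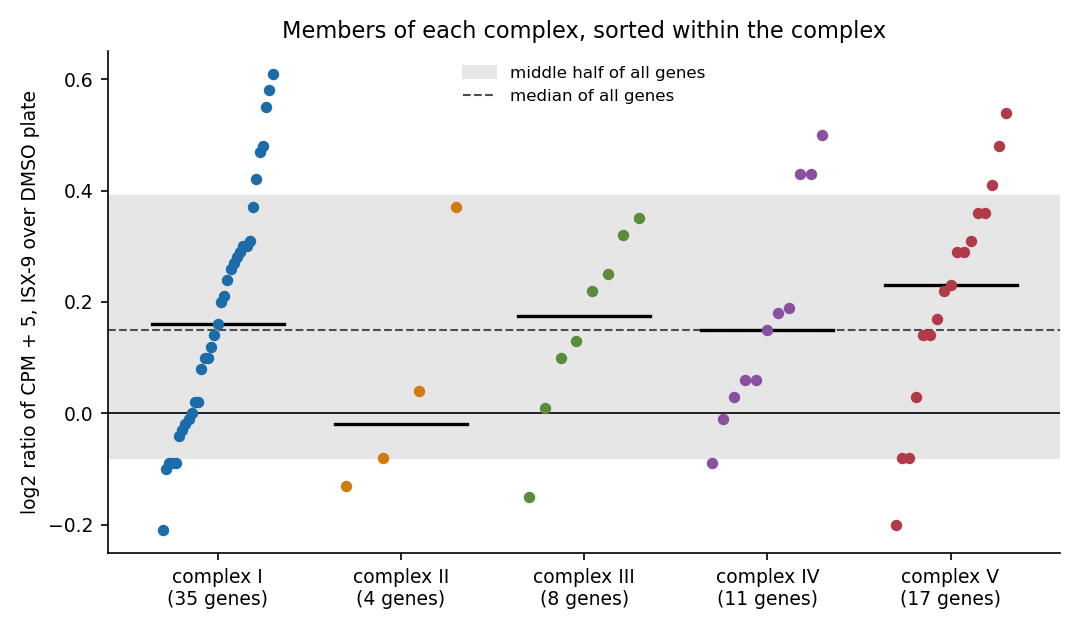
Difference between the ISX-9 and the DMSO plate (log2 ratio of CPM + 5) of the 75 members with a mean of at least 10 CPM, sorted within each complex; black bars are the medians of each complex, the grey band is the middle 50% of all 9106 genes (-0.08 to 0.39) and the dashed line their median, 0.15. Most members lie in the band, none reaches a log2 ratio of 1, and complex II has the lowest median.

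By complex, the summed level of complex I was 4828 CPM (4789 to 4868) in ISX-9 and 4173 CPM (4140 to 4206) in DMSO, a log2 ratio of 0.21. Complex V stood at 5802 CPM in ISX-9 and 5080 CPM in DMSO (0.19), and complex IV at 2966 CPM in ISX-9 and 2682 CPM in DMSO (0.15). Complex III, at 1434 CPM in ISX-9 and 1378 CPM in DMSO (0.06), and complex II, at 410.6 CPM in ISX-9 and 395.7 CPM in DMSO (0.05), had lower ratios. In complex III the sum and the single genes differed, since the median of its 8 genes was 0.18, with 7 of 8 above 0, while Uqcrq alone took 459.9 of the 1434 CPM in ISX-9 at a ratio of -0.15. All 5 of these signs depended on the scaling: with ERCC spike-ins the log2 ratios were -0.04 for complex I, -0.20 for complex II, -0.20 for complex III, -0.11 for complex IV and -0.06 for complex V. A scaling factor moves all complexes alike and cannot change their order. The order of complexes I and V above complexes II and III was not the same in wells thinned to 2000 reads, where complex II had a log2 ratio of 0.20, complex I one of 0.19 and complex V one of 0.12.

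Each complex took almost the same share of the members' reads in both plates. Complex V took 37.57% in ISX-9 and 37.06% in DMSO, complex I 31.27% in ISX-9 and 30.44% in DMSO, and complex IV 19.21% in ISX-9 and 19.56% in DMSO. Complex III took 9.286% in ISX-9 and 10.05% in DMSO, and complex II 2.659% in ISX-9 and 2.887% in DMSO. Complex II had the fewest reads of the 5, and 71 of the 290 ISX-9 wells and 78 of the 300 DMSO wells had no read of its 4 genes.

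**Figure D2:**
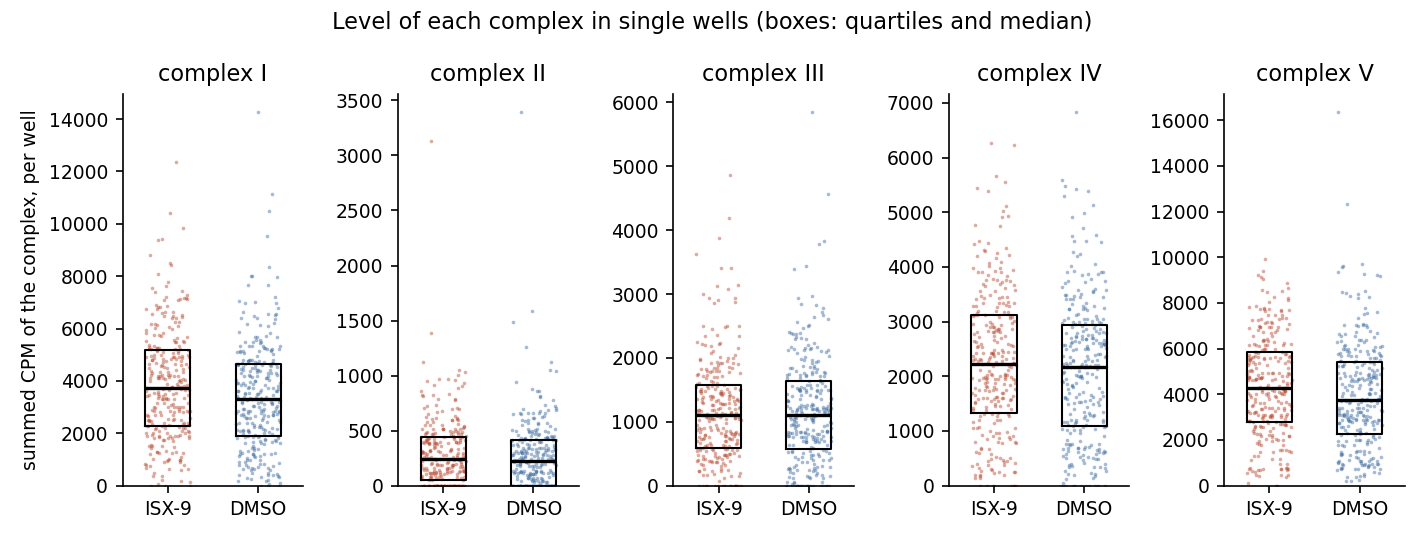
Summed CPM of each complex in every kept well (points), ISX-9 left of DMSO; boxes show the quartiles and the median over wells. The per-well medians were 3738 CPM in ISX-9 and 3306 CPM in DMSO for complex I and 4283 CPM in ISX-9 and 3738 CPM in DMSO for complex V, and the quartile boxes of the plates overlap in each complex, while the highest well of complex V was at 9940 CPM in ISX-9 and at 16356 CPM in DMSO.

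Among the genes of complex I, the member with the highest log2 ratio was Ndufb7, an accessory subunit of the membrane arm, at 56.69 CPM (52.47 to 61.15) in ISX-9 and 35.51 CPM (32.54 to 38.69) in DMSO (0.61). Ndufs1, the large iron-sulfur subunit of the NADH-oxidising module, followed with 222.5 CPM in ISX-9 and 146.9 CPM in DMSO (0.58). In the annotation Ndufs1 overlaps Eef1b2 on the other strand, so its value is uncertain. Both genes had a positive ratio in each of the 11 alternative settings, between 0.38 and 0.75 for Ndufb7 and between 0.22 and 0.78 for Ndufs1. At the other end, Ndufa10, an accessory subunit, stood at 63.46 CPM (59 to 68.18) in ISX-9 and 74.15 CPM (69.82 to 78.67) in DMSO (-0.21), with the opposite sign in 1 setting, and Ndufa13 (GRIM-19) at 45.42 CPM in ISX-9 and 49.07 CPM in DMSO (-0.10). In the annotation the interval of Ndufa13 overlaps Yjefn3 on the same strand and Tssk6 on the other strand. Ndufa12, an accessory subunit, had the most reads of the complex, at 831.7 CPM in ISX-9 and 741.9 CPM in DMSO (0.16, but -0.09 with ERCC scaling). Ndufa4 stood at 325.1 CPM in ISX-9 and 234 CPM in DMSO (0.47).

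The 4 genes of complex II did not move together. Sdhc, which encodes a membrane anchor, stood at 129 CPM (122.6 to 135.7) in ISX-9 and 98.41 CPM (93.41 to 103.6) in DMSO (0.37), and Sdhd, the other anchor, at 47.37 CPM in ISX-9 and 46.02 CPM in DMSO (0.04). Sdha, the flavoprotein, stood at 160.8 CPM in ISX-9 and 170.2 CPM in DMSO (-0.08), and Sdhb, the iron-sulfur subunit, at 73.38 CPM in ISX-9 and 81.06 CPM in DMSO (-0.13). The ratio of Sdhc was positive in all 11 alternative settings, while Sdha, Sdhb and Sdhd each changed sign in at least 1. A single well gave 10.04% of the Sdha reads of the DMSO plate.

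In complex III, Uqcr11, a small subunit, stood at 58.04 CPM in ISX-9 and 44.53 CPM in DMSO (0.35), and Uqcrh, the hinge protein, at 123 CPM in ISX-9 and 97.73 CPM in DMSO (0.32). Uqcrq, a subunit that sits beside cytochrome b, had the most reads of the complex and the lowest ratio, with 459.9 CPM (447.8 to 472.3) in ISX-9 and 511.6 CPM (500.2 to 523.3) in DMSO (-0.15). It was found in 212 of the 290 ISX-9 wells and in 238 of the 300 DMSO wells. The core protein gene Uqcrc2 stood at 195.5 CPM in ISX-9 and 193.8 CPM in DMSO (0.01). The ratios of Uqcr11 and Uqcrh were positive and that of Uqcrq negative in all 11 alternative settings. The pseudocounts could turn no sign, and the changed totals and scalings could not turn the negative sign of Uqcrq.

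In complex IV, Cox7c stood at 45.42 CPM in ISX-9 and 30.63 CPM in DMSO (0.50, with the opposite sign in 1 setting), and Cox5a, which encodes a subunit on the matrix side, at 279 CPM (269.6 to 288.7) in ISX-9 and 205.6 CPM (198.4 to 213.1) in DMSO (0.43, positive in all 11 settings). Cox7b stood at 141.8 CPM in ISX-9 and 151 CPM in DMSO (-0.09), and Cox8a, the ubiquitous isoform of the smallest subunit, at 904 CPM in ISX-9 and 867.2 CPM in DMSO (0.06, and -0.19 with ERCC scaling). Several complex IV subunits exist as tissue isoforms. Both genes below the filter are of this kind: Cox6b2, best known from testis, had 74 reads in 18 ISX-9 wells and 4 reads in 2 DMSO wells, and Cox7a1, best known from heart and skeletal muscle, had reads in 26 ISX-9 wells and 14 DMSO wells. Their levels were 6.27 CPM (4.923 to 7.872) in ISX-9 and 0.2711 CPM (0.07387 to 0.6941) in DMSO for Cox6b2, and 4.152 CPM in ISX-9 and 1.355 CPM in DMSO for Cox7a1. Cox6b2 was 2.633% of the Cox6b1 and Cox6b2 reads in ISX-9 and 0.1215% in DMSO. One ISX-9 well held 20.27% of its reads, and 3 of the 4 DMSO reads (75%) came from 1 well. Without the filter Cox6b2 was the single member past 2-fold on CPM + 5, at a log2 ratio of 1.10. Cox7a1 had a log2 ratio of 0.53 on that scale but was 3.063-fold higher in CPM without the added 5. Within the Cox7a family, Cox7a2 took 29.13% of reads in ISX-9 and 26.38% in DMSO, and Cox7a2l, known as an assembly factor of supercomplexes, 69.21% in ISX-9 and 73.06% in DMSO.

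In complex V, Atp5l (subunit g) stood at 238.1 CPM (229.4 to 247.1) in ISX-9 and 162.5 CPM (156 to 169.1) in DMSO (0.54, positive in all 11 settings), and Atp5k (subunit e) at 112.8 CPM in ISX-9 and 83.63 CPM in DMSO (0.41). Atp5l overlaps Gm30934 on the other strand. Atp5sl stood at 60.58 CPM in ISX-9 and 42.09 CPM in DMSO (0.48), and Atp5c1, the central stalk subunit gamma, at 369.9 CPM in ISX-9 and 391 CPM in DMSO (-0.08, negative in all 11 settings). The pseudocounts and the changed totals and scalings could not turn the negative sign of Atp5c1. The catalytic and structural core genes Atp5b and Atp5a1 (subunits beta and alpha) stood at 779.8 CPM in ISX-9 and 704.9 CPM in DMSO for Atp5b, and at 812.3 CPM in ISX-9 and 662.6 CPM in DMSO for Atp5a1.

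The 3 genes of subunit c differed in direction. Atp5g1, Atp5g2 and Atp5g3 encode the same mature protein of the membrane ring, each behind its own import signal. Atp5g3 stood at 967.4 CPM (949.7 to 985.3) in ISX-9 and 751.8 CPM (737.9 to 765.9) in DMSO (0.36). Atp5g2 stood at 656.1 CPM (641.6 to 670.9) in ISX-9 and 691.5 CPM (678.1 to 705.1) in DMSO (-0.08), and Atp5g1 at 238.6 CPM (229.9 to 247.6) in ISX-9 and 275 CPM (266.6 to 283.6) in DMSO (-0.20). The sign of each ratio was the same in all 11 alternative settings, although the pseudocounts could turn no sign and the changed scalings no negative one. Of the reads of the 3 genes together, Atp5g3 took 51.95% in ISX-9 (95% Clopper-Pearson interval 51.29 to 52.61) and 43.75% in DMSO (43.14 to 44.37). Atp5g2 took 35.23% in ISX-9 and 40.24% in DMSO, and Atp5g1 took 12.81% in ISX-9 and 16% in DMSO. This share is free of the scaling between the plates. A single well gave 8.42% of the Atp5g3 reads in DMSO and 3.941% in ISX-9. No source used here says how reads shared between the 3 genes were counted, and the split is uncertain to that extent.

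Within each plate the Atp5g3 share was higher in wells high for Tph1, the enzyme gene of serotonin-producing enterochromaffin cells, than in wells without its reads. In the ISX-9 plate it was 57.35% in wells with a high Tph1 level and 50.14% in wells without a Tph1 read, and in the DMSO plate 48.36% in Tph1-high wells and 40.08% in Tph1-unread wells. In ISX-9, Atp5g3 itself stood at 972.1 CPM in Tph1-high and 934.9 CPM in Tph1-unread wells (0.06). Atp5g2 stood there at 504.3 CPM in Tph1-high and 711.5 CPM in Tph1-unread wells (-0.49). In DMSO the log2 ratios were 0.36 for Atp5g3 and -0.22 for Atp5g2. These are pooled reads of classes not matched in depth. The Atp5g1 share was lower in Neurog3-high wells, with 10.18% in Neurog3-high and 16.34% in Neurog3-unread wells of the ISX-9 plate, and 12.86% in Neurog3-high and 17.25% in Neurog3-unread wells of the DMSO plate. In each of these classes the Atp5g3 share of the ISX-9 plate was above that of the same class in the DMSO plate.

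The promoters of these 3 genes, and of Atp5o and Atp5f1, which stood out by Mki67 below, are printed from RefSeq (GRCm38.p6) because the genes encode parts of 1 complex from unlike promoters. Each runs from 250 bases before to 50 bases after the gene's start, all 5 on the minus strand and written 5′ to 3′: Atp5g1 at chr11:96075582-96075881, Atp5g2 at chr15:102670998-102671297, Atp5g3 at chr2:73911277-73911576, Atp5o at chr16:91931581-91931880 and Atp5f1 (Atp5pb in RefSeq) at chr3:105959214-105959513. Capitals mark matches to GCGC, any 2 bases and GCGC again, the core of the motif bound by NRF1 (nuclear respiratory factor), a known regulator of respiratory chain genes.
Atp5g1: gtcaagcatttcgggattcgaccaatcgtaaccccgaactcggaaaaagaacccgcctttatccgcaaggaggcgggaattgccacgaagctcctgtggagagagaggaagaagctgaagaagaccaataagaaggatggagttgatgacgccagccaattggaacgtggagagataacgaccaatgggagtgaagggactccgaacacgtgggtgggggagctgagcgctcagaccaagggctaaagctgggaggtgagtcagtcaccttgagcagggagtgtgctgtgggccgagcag
Atp5g2: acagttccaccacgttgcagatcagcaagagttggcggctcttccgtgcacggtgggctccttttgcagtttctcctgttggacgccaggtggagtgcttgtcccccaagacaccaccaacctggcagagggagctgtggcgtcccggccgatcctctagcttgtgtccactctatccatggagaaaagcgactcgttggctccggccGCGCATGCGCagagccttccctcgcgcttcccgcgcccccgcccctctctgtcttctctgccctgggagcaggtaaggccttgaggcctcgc
Atp5g3: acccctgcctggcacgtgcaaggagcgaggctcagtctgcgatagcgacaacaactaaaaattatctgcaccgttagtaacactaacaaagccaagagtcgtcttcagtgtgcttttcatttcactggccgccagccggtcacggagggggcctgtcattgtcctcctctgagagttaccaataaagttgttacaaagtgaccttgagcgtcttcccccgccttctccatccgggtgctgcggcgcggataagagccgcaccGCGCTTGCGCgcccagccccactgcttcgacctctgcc
Atp5o: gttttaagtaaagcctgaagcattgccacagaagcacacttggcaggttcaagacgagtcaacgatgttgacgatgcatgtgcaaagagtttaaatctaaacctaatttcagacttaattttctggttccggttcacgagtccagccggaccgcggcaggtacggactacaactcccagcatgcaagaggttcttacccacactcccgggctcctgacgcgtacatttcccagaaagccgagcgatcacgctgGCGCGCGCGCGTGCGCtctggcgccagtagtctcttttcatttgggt
Atp5f1: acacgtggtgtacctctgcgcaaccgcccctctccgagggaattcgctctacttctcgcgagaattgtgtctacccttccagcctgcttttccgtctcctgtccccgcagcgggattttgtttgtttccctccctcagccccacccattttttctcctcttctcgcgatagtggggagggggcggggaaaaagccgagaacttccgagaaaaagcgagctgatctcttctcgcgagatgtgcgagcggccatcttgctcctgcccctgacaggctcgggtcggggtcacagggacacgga

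Of the subunit c genes, Atp5g2 and Atp5g3 held 1 match each and Atp5g1 held none, and Atp5o held 2 overlapping matches and Atp5f1 none. A promoter was found in RefSeq under the same or a synonymous symbol for 66 of the 77 members. The NRF1 letters were in 17 of these 66 genes (25.76%), in 16.34% of the 6932 nuclear genes past the filter that have a promoter in the table, and in 6.997% of all 27025 genes. The letters CCGGAAG, bound by ETS factors such as GABPA, were in 16 members (24.24%), against 21.78% of the genes past the filter. The letters AAGATGGCG, bound by YY1, were in 8 members (12.12%), against 4.083% of the genes past the filter. All were searched on both strands, and a promoter could count for more than 1 motif. A match describes the letters and not a bound site.

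The level of the members was next set against 4 marker genes in the same wells. These were Neurog3 for endocrine progenitors, Tph1 for enterochromaffin cells, Muc2, which encodes the main mucin of goblet cells, and Mki67, a gene of dividing cells. A well was called high for a marker at or above the median CPM of wells with a read over both plates (410.6 CPM for Neurog3, 763.4 for Tph1, 344.4 for Muc2 and 113.7 for Mki67), low below it, and unread without a read. An unread well may hold the transcript below detection.

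The members' level was far higher in Mki67-high wells than in unread wells of the ISX-9 plate, and higher by less in the DMSO plate. In the ISX-9 plate the summed level had a median of 18694 CPM (quartiles 13595 and 20707) in 30 Mki67-high wells and of 10744 CPM (quartiles 7712 and 13950) in 229 Mki67-unread wells, a log2 ratio of 0.80. In the DMSO plate it was 13490 CPM (quartiles 10417 and 17415) in 40 Mki67-high wells and 9714 CPM (quartiles 6772 and 12599) in 222 Mki67-unread wells, a log2 ratio of 0.47. In Mki67-low wells the median was 14736 CPM in 31 wells of the ISX-9 plate and 14670 CPM in 38 wells of the DMSO plate, so that in the DMSO plate the low class stood above the high class. The low class held no shallow wells, since there a single Mki67 read can already pass the cut. Of the 94 ISX-9 wells under 10000 reads, 4 were high and 90 unread. Of the 85 such DMSO wells, 2 were high and 83 unread. Low and high wells are therefore not compared at like depth. Every complex had a higher median in Mki67-high than in Mki67-unread wells of both plates. Complex V had medians of 7104 CPM in Mki67-high and 3808 CPM in Mki67-unread wells of the ISX-9 plate, and of 5405 CPM in Mki67-high and 3246 CPM in Mki67-unread wells of the DMSO plate. For complex I these were 5831 CPM in Mki67-high and 3450 CPM in Mki67-unread wells of the ISX-9 plate, and 4151 CPM in Mki67-high and 2861 CPM in Mki67-unread wells of the DMSO plate.

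Markers of other cell types and depth moved with the Mki67 classes. The mean summed level of the stem cell list was 1478 CPM in Mki67-high and 350.5 CPM in Mki67-unread wells of the ISX-9 plate, and 1800 CPM in Mki67-high and 698 CPM in Mki67-unread wells of the DMSO plate. The enterochromaffin list stood at 8070 CPM in Mki67-high and 24060 CPM in Mki67-unread wells of the ISX-9 plate, and at 5289 CPM in Mki67-high and 24082 CPM in Mki67-unread wells of the DMSO plate. The endocrine progenitor list stood at 1081 CPM in Mki67-high and 7023 CPM in Mki67-unread wells of the ISX-9 plate, and at 1055 CPM in Mki67-high and 3324 CPM in Mki67-unread wells of the DMSO plate. The part of these cell types in the Mki67 difference was not tested. The median well held 98624 nuclear reads in the Mki67-high and 16309 in the Mki67-unread class of the ISX-9 plate, and 53196 in the Mki67-high and 16644 in the Mki67-unread class of the DMSO plate, where the Mki67-low class held 88371. Among wells with at least 30000 reads the medians were 20023 CPM in 20 Mki67-high and 13756 CPM in 79 Mki67-unread wells of the ISX-9 plate (0.54), and 14616 CPM in 29 Mki67-high and 12129 CPM in 77 Mki67-unread wells of the DMSO plate (0.27). With each high well paired with the unread well nearest in depth, the log2 ratio was 0.47 in the ISX-9 plate, where 22 of 30 high wells stood above their partner, and 0.12 in the DMSO plate, where 24 of 40 did. In the ISX-9 pairs depth was still unequal, with medians of 98624 reads in the Mki67-high and 74829 in the Mki67-unread wells. With a cutoff of 500 CPM of Mki67, just 5 ISX-9 wells were high, with a median of 16888 reads, and the ratio was 0.03. In the DMSO plate 8 wells were high at that cutoff and the ratio was 0.41. Without wells high for another of the 4 markers the ratio was 0.84 in the ISX-9 plate and 0.13 in the DMSO plate, where 17 of the 40 Mki67-high wells were also Muc2-high.

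**Figure D3:**
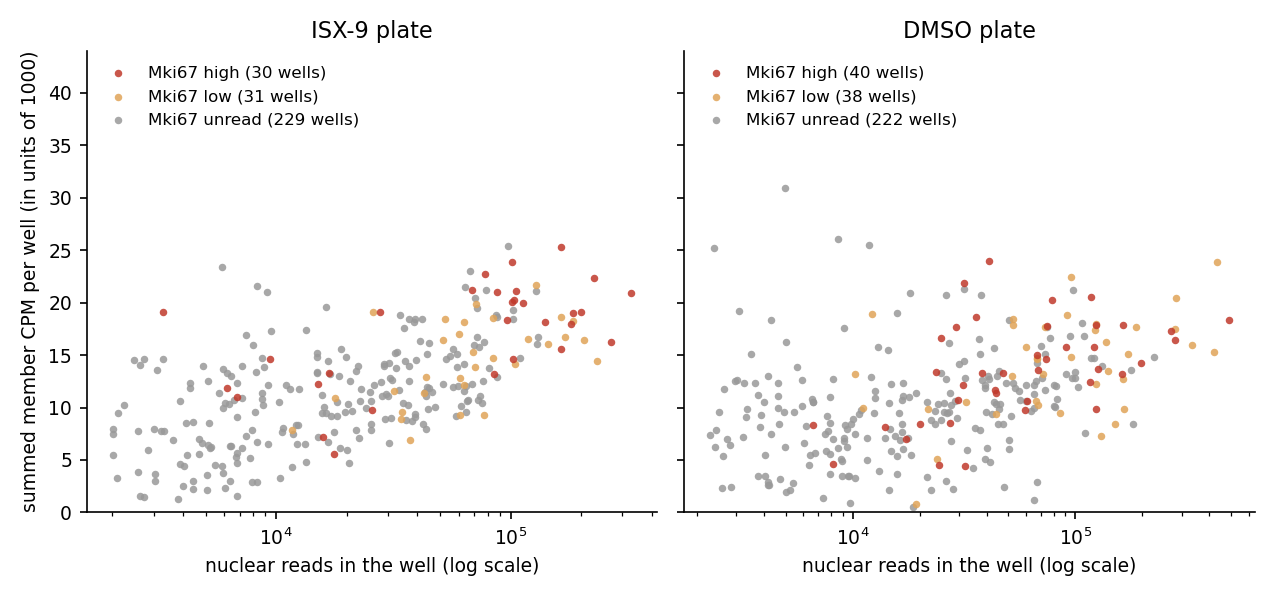
Summed member CPM of each kept well, in units of 1000, against its nuclear reads (log axis), ISX-9 plate left and DMSO plate right, coloured by Mki67 class. The level is higher in deeper wells of both plates, and among deep wells of the ISX-9 plate the Mki67-high wells lie mostly in the upper part of the cloud.

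Gene by gene, the members' pooled CPM in Mki67-high over Mki67-unread wells had a median log2 ratio of 0.39 in the ISX-9 plate and 0.37 in the DMSO plate, against 0.01 in the ISX-9 plate and 0.08 in the DMSO plate over all genes. A ratio above 0 in both plates was found for 62 of the 75 members (82.67%), against 37.3% of all genes, and a ratio below 0 in both for 2 members (Ndufa1 and Uqcrh), against 31.5% of all genes. Among wells with at least 30000 reads 60 members were above 0 in both plates, against 35.0% of all genes, and in wells paired by depth 48 were, against 32.3%. Of the ribosomal protein genes, 69 of 71 were above 0 in both plates among the deep wells and 70 of 71 among the paired wells. At least 2-fold higher was 1 member in the ISX-9 plate (7.70% of all genes) and none in the DMSO plate (6.35%), and none was 2-fold lower (9.95% of all genes in ISX-9 and 6.15% in DMSO). The single member was Ndufb6, a membrane arm subunit, with 279.4 CPM in Mki67-high and 123.3 CPM in Mki67-unread wells of the ISX-9 plate (1.15), but 177.2 CPM in Mki67-high and 147.3 CPM in Mki67-unread wells of the DMSO plate (0.26). It was named after its value was seen.

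Both members highest by Mki67 belong to the peripheral stalk of complex V. Atp5o (OSCP) stood at 321.5 CPM in Mki67-high and 160 CPM in Mki67-unread wells of the ISX-9 plate (0.98), and at 229.3 CPM in Mki67-high and 132.9 CPM in Mki67-unread wells of the DMSO plate (0.76). Atp5f1 (subunit b) stood at 114.4 CPM in Mki67-high and 63.52 CPM in Mki67-unread wells of the ISX-9 plate (0.80), and at 90.33 CPM in Mki67-high and 46.18 CPM in Mki67-unread wells of the DMSO plate (0.90). Atp5f1 overlaps Wdr77 on the other strand, and overlaps of Atp5o were not checked. The 2 members below 0 in both plates were Ndufa1, a small membrane arm subunit, at 106.2 CPM in Mki67-high and 116.2 CPM in Mki67-unread wells of the ISX-9 plate (-0.12) and 61.19 CPM in Mki67-high and 80.27 CPM in Mki67-unread wells of the DMSO plate (-0.37), and Uqcrh, with ratios of -0.23 in the ISX-9 plate and -0.13 in the DMSO plate.

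By the other 3 marker genes the differences between high and unread wells were smaller. In both plates the low class of each gene had the highest median level and the deepest median well. In Neurog3-low wells the level was 13555 CPM in ISX-9 and 11574 CPM in DMSO. For Tph1-low wells it was 14140 CPM in ISX-9 and 12518 CPM in DMSO, and for Muc2-low wells 13233 CPM in ISX-9 and 12181 CPM in DMSO. By Neurog3 the median level was 11060 CPM in 121 Neurog3-high and 11400 CPM in 79 Neurog3-unread wells of the ISX-9 plate (-0.04), and 10361 CPM in 58 Neurog3-high and 10459 CPM in 153 Neurog3-unread wells of the DMSO plate (-0.01). The classes differed in depth, with a median of 25484 reads in Neurog3-high and 11841 in Neurog3-unread wells of the ISX-9 plate. Among ISX-9 wells with at least 30000 reads the level was 12767 CPM in 55 Neurog3-high and 16133 CPM in 22 Neurog3-unread wells (-0.34), and with at least 10000 reads and 1000 genes the ratio was -0.24. The sign in the ISX-9 plate depended on the wells used, with 0.07 in wells paired by depth and 0.07 without wells high for another marker gene. Those pairs still held medians of 38844 reads in the Neurog3-high and 11841 in the Neurog3-unread class. In the DMSO plate the ratio was 0.00 with at least 30000 reads and -0.11 with at least 10000. It was -0.19 there in wells paired by depth and -0.25 without wells high for another marker gene. By Muc2 it was 12178 CPM in 60 Muc2-high and 11062 CPM in 172 Muc2-unread wells of the ISX-9 plate (0.14), and 9915 CPM in 118 Muc2-high and 9437 CPM in 63 Muc2-unread wells of the DMSO plate (0.07). The Muc2 ratio of the DMSO plate depended on the wells used, with -0.12 among wells with at least 30000 reads, -0.14 in thinned wells and 0.34 in wells paired by depth, although the paired wells still held a median of 60766 reads in the Muc2-high and 12052 in the Muc2-unread class. By Tph1 the level was 9571 CPM in 68 Tph1-high and 11773 CPM in 155 Tph1-unread wells of the ISX-9 plate (-0.30), and 9558 CPM in 66 Tph1-high and 10505 CPM in 168 Tph1-unread wells of the DMSO plate (-0.14). All these differences between high and unread wells were small beside the spread of wells. In the Tph1-high class of the ISX-9 plate the quartiles were 6662 and 12865 CPM. Median depth was 17622 reads in Tph1-high and 19766 in Tph1-unread wells of the ISX-9 plate. In the DMSO plate it was 15730 reads in Tph1-high and 24443 in Tph1-unread wells. Over all kept wells, each of the 5 complexes had a lower median in Tph1-high wells of both plates. The log2 ratios were -0.39 for complex I, -0.47 for II, -0.38 for III, -0.30 for IV and -0.23 for V in the ISX-9 plate, and -0.29 for complex I, -0.59 for II, -0.40 for III, -0.28 for IV and -0.18 for V in the DMSO plate. The Tph1 ratio of the summed level in the ISX-9 plate was -0.29 and in the DMSO plate 0.04 among wells with at least 30000 reads. In DMSO wells of that depth, complexes I, II and III had higher medians in Tph1-high wells, and IV and V lower ones. Pooled over all DMSO wells, the level was 13610 CPM in Tph1-high and 12735 CPM in Tph1-unread wells, with 49 of 75 members above 0. In the ISX-9 plate it was 14031 CPM in Tph1-high and 15244 CPM in Tph1-unread wells, with 20 of 75 above 0.

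**Figure D4:**
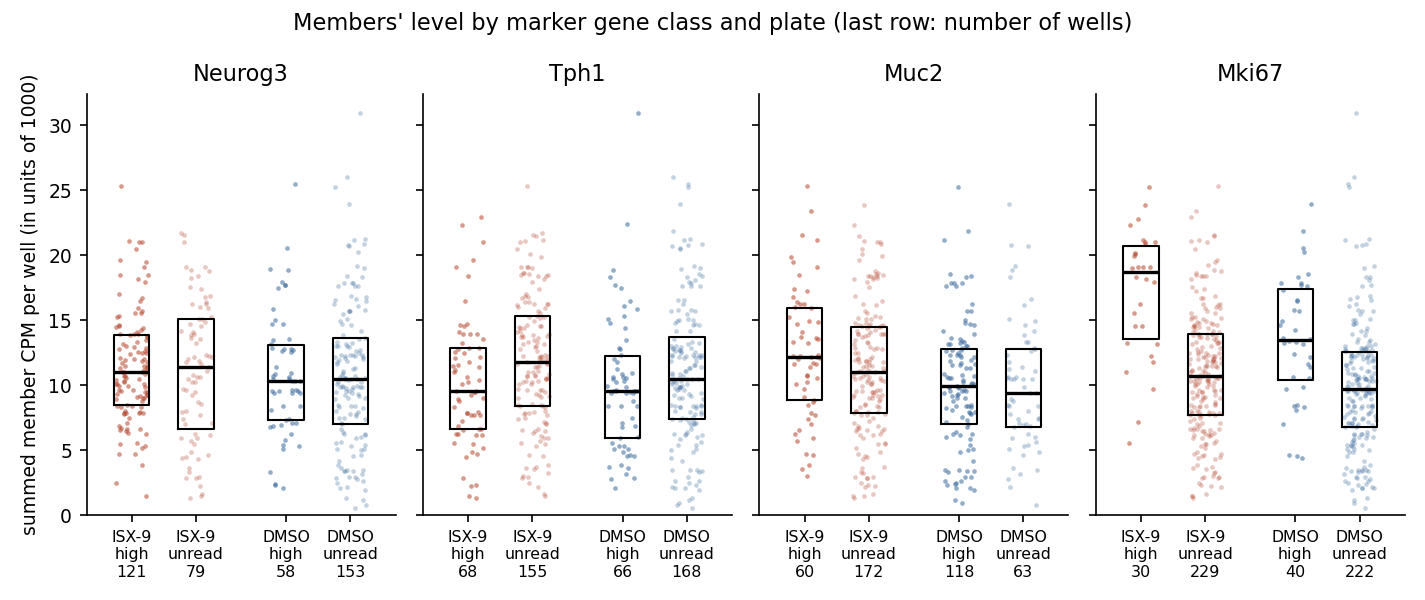
Summed member CPM per well, in units of 1000, in wells high and unread for each marker gene, ISX-9 plate left of DMSO plate; boxes show quartiles and median, and the last line of each label is the number of wells. The Mki67-high wells have the highest medians, 18694 CPM in ISX-9 and 13490 CPM in DMSO.

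For Neurog3, 20 members were above 0 in both plates (36.7% of all genes), 17 below 0 in both (21.4%) and 38 opposite. For Tph1 these were 15 (32.0%), 21 (26.1%) and 39, and for Muc2 20 (23.3%), 16 (39.2%) and 39. None of the 75 members was 2-fold different by Neurog3, Tph1 or Muc2 in either plate. Over all genes, 7.00% were at least 2-fold higher and 5.79% lower by Neurog3 in the ISX-9 plate, with 5.92% higher and 3.78% lower in the DMSO plate. By Tph1 the shares were 5.85% higher and 5.27% lower in ISX-9, with 7.91% higher and 4.91% lower in DMSO, and by Muc2 they were 4.32% higher and 13.4% lower in ISX-9, with 8.70% higher and 11.8% lower in DMSO.

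**Figure D5:**
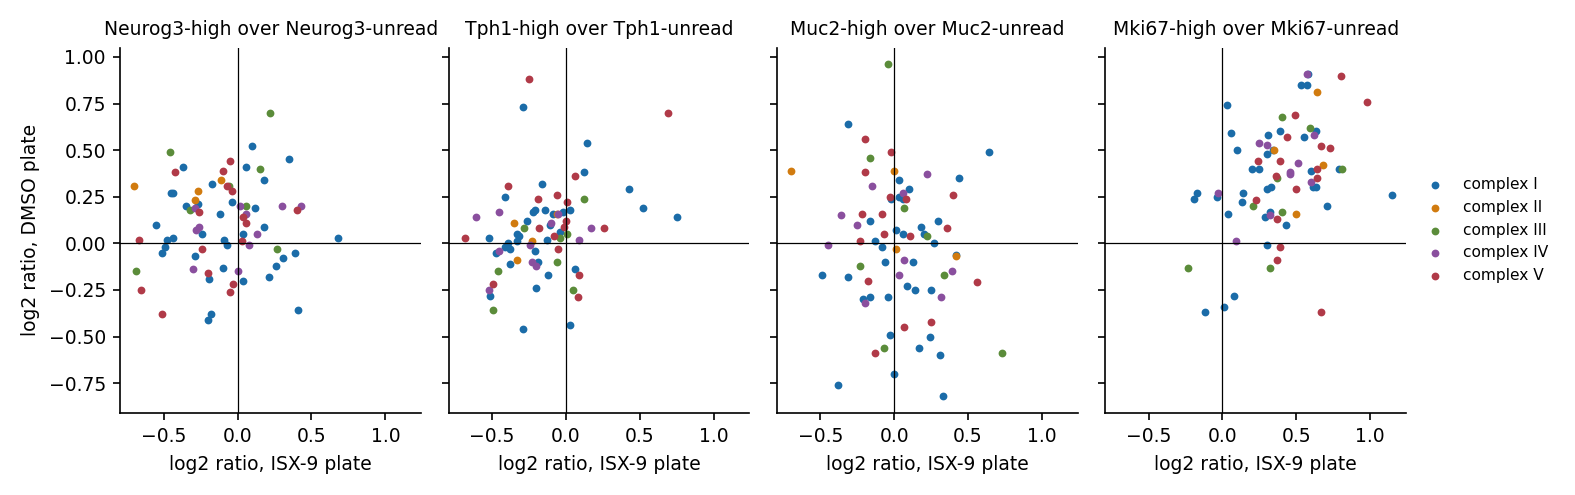
Log2 ratio of each of the 75 members in wells high over wells unread for a marker gene, ISX-9 plate on the x axis and DMSO plate on the y axis, coloured by complex. By Mki67, 62 members lie in the upper right quadrant, while by Neurog3, Tph1 and Muc2 the points lie around the origin.

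Members that held their sign in both plates were found in several complexes. By Neurog3, Uqcrb, a small subunit of complex III, stood at 147 CPM in Neurog3-high and 125.8 CPM in Neurog3-unread wells of the ISX-9 plate (0.22) and at 161.7 CPM in Neurog3-high and 97.63 CPM in Neurog3-unread wells of the DMSO plate (0.70). Ndufv2, of the NADH-oxidising module, had log2 ratios of 0.35 in ISX-9 and 0.45 in DMSO. Atp5g1 stood at 170.6 CPM in Neurog3-high and 270.6 CPM in Neurog3-unread wells of the ISX-9 plate (-0.65), with -0.25 in the DMSO plate, and Atp5e (subunit epsilon) had -0.51 in ISX-9 and -0.38 in DMSO.

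By Tph1, Atp5s stood at 34.31 CPM in Tph1-high and 19.37 CPM in Tph1-unread wells of the ISX-9 plate (0.69) and at 24.21 CPM in Tph1-high and 12.95 CPM in Tph1-unread wells of the DMSO plate (0.70). These values rest on few wells, as Atp5s had 247 reads in 50 ISX-9 wells and 302 reads in 43 DMSO wells. Ndufa11, a membrane arm subunit that overlaps Vmac on the other strand, had 0.75 in ISX-9 and 0.14 in DMSO. Uqcrfs1, the Rieske iron-sulfur protein, had -0.49 in ISX-9 and -0.36 in DMSO, and Ndufs4, an accessory subunit, -0.51 in ISX-9 and -0.28 in DMSO. By Muc2, Ndufs7, which carries the last iron-sulfur centre before ubiquinone, had 0.64 in ISX-9 and 0.49 in DMSO, and Ndufa10 0.44 in ISX-9 and 0.35 in DMSO. Ndufa11 had -0.38 in ISX-9 and -0.76 in DMSO, and Atp5j2 (subunit f) -0.13 in ISX-9 and -0.59 in DMSO.

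Across all wells, the members' level was higher in deeper wells. In wells under 10000 reads, of at least 10000 but under 30000 reads and of 30000 reads or more, the medians were 7889, 10492 and 14765 CPM in the ISX-9 plate and 7816, 9437 and 12982 CPM in the DMSO plate. Spearman's correlation between level and nuclear reads was 0.62 over 290 ISX-9 wells and 0.47 over 300 DMSO wells. With members counted in wells thinned to 2000 reads it was 0.55 in ISX-9 and 0.42 in DMSO. These are descriptions over wells of 1 library each, which share the depth and the total of the well.

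The 5 complexes followed each other across wells. In wells with at least 30000 reads, Spearman's correlation between complexes I and V was 0.73 over 127 ISX-9 wells and 0.67 over 138 DMSO wells, and between complexes IV and V 0.72 in ISX-9 and 0.66 in DMSO. The lowest value was that of complexes II and III, 0.23 in ISX-9 and 0.38 in DMSO. The same depth stands behind all of these sums.

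The 13 protein genes of the mitochondrial chromosome, which encode the partner subunits, took 20.95% of reads in ISX-9 and 19.79% in DMSO, spike-ins left out. Of them 9 were higher and 4 lower in ISX-9. The mitochondrial share of a well's reads had a Spearman correlation of -0.16 with the members' level in both plates, but of 0.36 over the 127 deep wells of the ISX-9 plate and 0.27 over the 138 deep wells of the DMSO plate. In wells under 10000 reads the median mitochondrial share was 41.42% in ISX-9 and 42.83% in DMSO, and in wells of 30000 reads or more it was 21.91% in ISX-9 and 23.3% in DMSO.

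Among related genes, the subunits and partners outside the symbol rule (such as Cyc1 and Cycs, which encode cytochrome c1 and cytochrome c) were above 0 in 7 of 7, with a median log2 ratio of 0.27. Atpif1, the inhibitor of ATP synthase hydrolysis, stood at 208.4 CPM in ISX-9 and 154 CPM in DMSO (0.42), and Higd1a at 33.64 CPM in ISX-9 and 25.08 CPM in DMSO (0.36). With ERCC scaling 4 of these 7 were above 0, with a median of 0.02. The assembly factors, which put the complexes together without being part of them, had a median of 0.05, with 18 of 33 above 0 (8 of 33 with ERCC scaling, median -0.17). The largest differences among them were Ndufaf1, a complex I assembly factor, at 24.91 CPM in ISX-9 and 35.78 CPM in DMSO (-0.45), and Sdhaf1, a complex II assembly factor, at 37.45 CPM in ISX-9 and 52.59 CPM in DMSO (-0.44).

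Genes of the tricarboxylic acid cycle had a median of 0.08, with 11 of 15 above 0 (4 of 15 with ERCC scaling, median -0.16). Idh3a, a subunit of isocitrate dehydrogenase, stood at 170.7 CPM in ISX-9 and 218.4 CPM in DMSO (-0.35), and Idh3g, its partner, at 154.1 CPM in ISX-9 and 113.7 CPM in DMSO (0.42). The regulators of mitochondrial biogenesis had a median of 0.08, with 8 of 10 above 0 (3 of 10 with ERCC scaling, median -0.13). The mitochondrial RNA polymerase gene Polrmt stood at 33.72 CPM in ISX-9 and 23.45 CPM in DMSO (0.44), and Esrra, an orphan nuclear receptor, at 30.42 CPM in ISX-9 and 21.55 CPM in DMSO (0.42). The carriers and pores had a median of 0.30, with 6 of 6 above 0 (4 of 6 with ERCC scaling, median 0.05), led by the adenine nucleotide carrier Slc25a4 at 86.68 CPM in ISX-9 and 46.83 CPM in DMSO (0.82) and the pore gene Vdac1 at 286.5 CPM in ISX-9 and 230.7 CPM in DMSO (0.31).

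Of these lists, glycolysis stood farthest above the median of all genes. All 13 of its genes past the filter were above 0, with a median of 0.48, and their number was 8 of 13 with ERCC scaling, with a median of 0.22 against -0.08 over all genes. Hk1, a hexokinase, stood at 82.7 CPM in ISX-9 and 42.83 CPM in DMSO (0.87), and Pgam1, phosphoglycerate mutase, at 870.4 CPM in ISX-9 and 555.8 CPM in DMSO (0.64). By Mki67 the lists differed in another way. The median log2 ratio in Mki67-high over Mki67-unread wells was 0.48 in ISX-9 and 0.57 in DMSO for carriers and pores, 0.46 in ISX-9 and 0.29 in DMSO for the tricarboxylic acid cycle, 0.35 in ISX-9 and 0.30 in DMSO for the assembly factors, and 0.12 in ISX-9 and -0.12 in DMSO for glycolysis.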

How the data were processed

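Single cells were sorted into wells, 1 plate of 384 wells per treatment, and their RNA was read from the 3′ end by SORT-seq, a CEL-Seq2 method, per the labels' protocols. The authors deposited raw counts of reads per gene and well. These are not molecules: the barcode of 4 bases allows 256 combinations, and the largest values are 30676 in ISX-9 and 61032 in DMSO, so Poisson and Clopper-Pearson intervals cover only the error of counting. BWA (no version) and hg19 stand in the submitters' processing notes, whereas the rows carry mouse symbols with a chromosome; the gene models and the rule for shared or antisense reads are not stated in those notes. Of the 76 members with a single entry in the GENCODE M21 annotation, 34 overlap another gene. Atp5o had 2 entries, and its overlaps were not checked. Ranks and shares of reads between genes describe the reads counted at transcript ends and not relative numbers of transcripts.

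Spike-ins and mitochondrial rows were left out of totals, and Rn45s was kept. Doublets were not called. Reads of kept wells were summed per plate or class and scaled to CPM. The log2 ratio is of CPM + 5, which understates differences of low genes, and 2-fold marks a call. A plate with no read of a gene is below 3 counts, or 0.2542 CPM in ISX-9 and 0.2033 CPM in DMSO. Fold recovery was tested on simulated plates drawn from the pooled DMSO profile at the real well depths. These hold no variation between cells or plates, so the test cannot speak to such variation. Python 3.11.15, NumPy 2.4.6, SciPy 1.17.1 and pandas were used.

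The members, markers and lists were chosen with earlier results of these data known. Named were the 2 highest and 2 lowest members by log2 ratio and the member with the most reads in each complex, isoform sets, the 2 highest and 2 lowest members by each marker gene with 1 sign in both plates, and 2 genes per related list. The alternatives were the scaling, the wells used, thinning, the pseudocount and the filter. Wells are not replicates, so no test was made.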

Additional observations from a re-analysis of the deposited data

Results flagged for a closer look

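Reads of the members also appeared in wells that the comparisons did not use. The 94 left-out wells of the ISX-9 plate held 955 member reads among 110974 nuclear reads, a level of 8606 CPM, and the 84 left-out wells of the DMSO plate held 853 among 159699, a level of 5341 CPM. Both levels are above the limit that a count of 0 allows and below the pooled levels of the kept wells, 15440 CPM in ISX-9 and 13707 CPM in DMSO.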

How the results depend on the processing

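The log2 ratios of summed levels between the plates (0.17 over all members) depended most on the scaling. With ERCC spike-ins they were -0.08 for all members, -0.04 for complex I, -0.20 for II, -0.20 for III, -0.11 for IV and -0.06 for V, with a members' median of -0.07. With median-of-ratios factors they were, in the same order, -0.03, 0.01, -0.15, -0.14, -0.06 and -0.01, with a median of -0.02. Without Rn45s in the total they were 0.07, 0.11, -0.05, -0.05, 0.04 and 0.09, with a median of 0.07, and without the 50 highest other genes too 0.03, 0.07, -0.09, -0.09, 0.00 and 0.05, with a median of 0.04. Means of per-well CPM gave 0.13 for all members, 0.18 for complex I, 0.01 for III, 0.08 for IV and 0.14 for V. Thinned wells gave 0.14, with 0.20 for complex II, -0.01 for III and 0.12 for V. Without the top 5% of wells by reads the values were 0.20, with 0.26 for complex I, 0.18 for II and 0.22 for V, and without the highest well of each feature 0.19 for all members. The count of members at least 2-fold higher was 1 (Cox6b2, on CPM + 5) when genes below the filter were let in and 0 in every other setting, and the count 2-fold lower was 0 throughout. Of the 33 named members with a positive ratio, 18 stayed positive in all 11 settings, and of the 11 with a negative ratio, 5 stayed negative. The pseudocounts could turn no sign, and the changed totals and scalings could turn only positive ones. The 11 settings are therefore not 11 separate checks of a sign. By Mki67 the ratio was 0.03 in ISX-9 with a cutoff of 500 CPM (5 wells), and in DMSO 0.12 in wells paired by depth and 0.13 without wells high for another marker. With marker and members counted in wells thinned to 2000 reads it was 0.73 in ISX-9 and 0.61 in DMSO. Before thinning those Mki67-high wells were still the deeper ones, with medians of 60367 against 21924 reads in ISX-9. The cause of these differences was not tested. Depth pairing and the limit of 30000 reads were chosen after seeing the data. No paired analysis was possible because each treatment has 1 plate. Few reads per well limit complex II and single members.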
